A study of Mus musculus with 36 samples.

Results

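The regions described here are the 8115 peaks of H3K9ac, the acetylation of lysine 9 on histone H3, that the authors list as differing between cystathionine gamma-lyase (CSE) knockout and wild-type smooth muscle cells of the mouse aorta. Every peak in the authors' deposited table for this mark was taken, with no further choice, and together they make up 58.1% of the 13958 peaks listed for the 3 histone marks of the study. The study cultured primary aortic smooth muscle cells, which are taken directly from the vessel and are not an immortal line. Wild-type cells (CSE WT) came from C57BL/6N mice and knockout cells (CSE KO) from animals lacking the enzyme in the whole body; the strain background of the knockout and the age of the mice are not given in the labels. All cells of both genotypes, controls included, had received angiotensin II (Ang II), a vasoconstrictor peptide, at 1 µM for 24 hours, so that no untreated cells enter the comparison. Chromatin immunoprecipitation with sequencing (ChIP-seq) of H3K9ac was done on 3 knockout and 3 wild-type samples, with 6 matching input libraries, among 36 samples in 12 groups. The labels do not say whether the samples of a genotype came from separate animals or cultures, so the authors' p-values measure the spread between those samples, which may be technical. The table gives 1 value per genotype for each peak, the log2 of the mean normalised reads, called log2 signal below, and no value per sample, so neither the depth of a library nor the spread between replicates can be given. A difference is the knockout minus the wild-type log2 signal throughout, and FDR is the authors' adjusted p.

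Histone acetylation at this lysine is placed by acetyltransferases such as the GCN5 and PCAF enzymes and removed by deacetylases and sirtuins, and it marks the promoters and enhancers of genes that are in use. CSE, encoded by Cth, makes cysteine and the gas hydrogen sulfide from products of methionine. In the aortic wall, smooth muscle cells carry the contractile apparatus, build much of the elastic and collagen matrix, and respond to angiotensin II through its G-protein-coupled receptors. ChIP-seq of a cell population gives an average over cells, and a change in the mark per cell and a change in the share of cells that carry it cannot be told apart.

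Of the promoters named below for a large difference or a strong signal, 8 are shown first, 4 from peaks lower in the knockout and 4 from peaks higher in it, because the CpG content described further on can be read directly from them. Each is the 300 bases from 250 before to 50 after the RefSeq transcription start (GRCm38.p6), 5′ to 3′ on the strand of the gene, and overlaps the listed peak; capitals mark every CpG dinucleotide. The 4 from lower peaks are Pcsk6 (chr7:65861886-65862185, + strand, 52 CpG), Npr3 (chr15:11907322-11907621, - strand, 6 CpG), Hs3st3a1 (chr11:64435082-64435381, + strand, 23 CpG) and Dync1i1 (chr6:5725389-5725688, + strand, 6 CpG). Those from higher peaks are Kcnn4 (chr7:24370013-24370312, + strand, 6 CpG), Tspan8 (chr10:115817034-115817333, + strand, 5 CpG), Apobec3 (chr15:79892158-79892457, + strand, 13 CpG) and Bst2 (chr8:71537423-71537722, - strand, 11 CpG).
Pcsk6: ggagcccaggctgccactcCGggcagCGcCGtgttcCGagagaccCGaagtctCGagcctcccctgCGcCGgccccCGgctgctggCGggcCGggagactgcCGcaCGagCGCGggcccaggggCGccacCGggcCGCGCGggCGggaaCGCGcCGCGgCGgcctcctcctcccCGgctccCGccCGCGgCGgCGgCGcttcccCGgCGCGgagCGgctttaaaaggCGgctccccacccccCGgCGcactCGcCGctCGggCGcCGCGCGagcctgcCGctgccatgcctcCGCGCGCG
Npr3: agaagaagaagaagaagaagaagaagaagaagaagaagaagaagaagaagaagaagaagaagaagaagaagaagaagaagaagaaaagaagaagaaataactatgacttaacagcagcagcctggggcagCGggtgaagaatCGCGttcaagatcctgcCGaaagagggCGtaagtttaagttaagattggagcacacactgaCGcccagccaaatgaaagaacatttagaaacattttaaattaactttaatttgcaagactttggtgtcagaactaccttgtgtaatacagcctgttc
Hs3st3a1: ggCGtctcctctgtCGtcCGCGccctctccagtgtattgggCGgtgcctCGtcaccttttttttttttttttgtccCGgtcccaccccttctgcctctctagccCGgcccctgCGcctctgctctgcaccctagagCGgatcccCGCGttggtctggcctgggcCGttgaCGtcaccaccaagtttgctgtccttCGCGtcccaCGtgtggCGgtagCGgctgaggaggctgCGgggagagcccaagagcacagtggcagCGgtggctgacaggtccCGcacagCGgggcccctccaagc
Dync1i1: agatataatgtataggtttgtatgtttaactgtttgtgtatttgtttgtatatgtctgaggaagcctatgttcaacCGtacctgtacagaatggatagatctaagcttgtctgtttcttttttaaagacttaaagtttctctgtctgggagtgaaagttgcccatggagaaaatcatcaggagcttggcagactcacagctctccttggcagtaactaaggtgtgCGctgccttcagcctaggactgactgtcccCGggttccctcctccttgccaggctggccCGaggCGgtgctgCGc
Kcnn4: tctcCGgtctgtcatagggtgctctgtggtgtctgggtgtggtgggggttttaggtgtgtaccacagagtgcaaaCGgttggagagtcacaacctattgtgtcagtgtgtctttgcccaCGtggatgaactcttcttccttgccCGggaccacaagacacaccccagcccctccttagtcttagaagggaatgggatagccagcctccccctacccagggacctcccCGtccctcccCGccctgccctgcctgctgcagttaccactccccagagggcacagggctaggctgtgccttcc
Tspan8: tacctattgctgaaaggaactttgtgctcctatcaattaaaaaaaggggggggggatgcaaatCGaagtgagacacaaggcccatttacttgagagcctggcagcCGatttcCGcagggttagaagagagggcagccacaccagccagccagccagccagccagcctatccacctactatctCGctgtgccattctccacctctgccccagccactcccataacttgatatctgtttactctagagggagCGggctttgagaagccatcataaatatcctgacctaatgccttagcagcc
Apobec3: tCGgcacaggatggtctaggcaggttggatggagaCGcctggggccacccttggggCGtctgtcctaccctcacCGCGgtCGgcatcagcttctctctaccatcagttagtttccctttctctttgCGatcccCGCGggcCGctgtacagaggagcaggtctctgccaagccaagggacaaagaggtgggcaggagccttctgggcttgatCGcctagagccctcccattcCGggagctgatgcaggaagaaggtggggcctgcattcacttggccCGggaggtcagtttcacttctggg
Bst2: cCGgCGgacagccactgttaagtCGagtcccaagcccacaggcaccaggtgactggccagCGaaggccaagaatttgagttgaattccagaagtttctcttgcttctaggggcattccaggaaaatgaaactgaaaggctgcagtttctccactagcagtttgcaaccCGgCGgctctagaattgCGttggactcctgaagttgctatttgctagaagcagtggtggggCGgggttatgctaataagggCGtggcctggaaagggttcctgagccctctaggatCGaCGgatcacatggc
The Pcsk6 window is a dense CpG island at 81.7% G and C, while the Npr3 window opens with a long GAA repeat and is 39.0% G and C. Among the other windows the G and C content lay between 46.7% at Dync1i1 and 65.3% at Hs3st3a1.

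H3K9ac was lower in the knockout at 6265 of the 8115 listed peaks, or 77.2%, and higher at 1850, or 22.8%. At an FDR under 0.05 the authors' deposited table held 1344 peaks, 16.6% of those listed, of which 1019 were lower (12.6% of the list) and 325 higher (4.005%). Since the list holds only peaks with a p under 0.05, these percentages describe listed peaks and not the whole genome. The list is also cut at the other end, with a smallest p of 1.01e-04. If the FDR is p times tests over rank, about 958 peaks of smaller p are absent from every count and ranking given here. Leaving out 29 peaks at the lowest level of either genotype, differences ran from -4.98 to 4.36 on the log2 scale, and the smallest in either direction was 0.54 in the authors' deposited table. Lower peaks were more numerous but smaller in fold: the median lower peak was 2.19-fold down and the median higher peak 2.50-fold up. A fold of at least 4 was reached by 619 lower peaks (9.88% of them) and by 325 higher peaks (17.6%), and a fold of at least 8 by 97 (1.55%) and 70 (3.78%). Lower peaks were also wider, with a median of 756 bases against 595, and stronger, with a median log2 signal over both genotypes of 5.45 against 5.03 in the authors' deposited table. Fold and width also varied with signal, as given below.

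**Figure D1:**
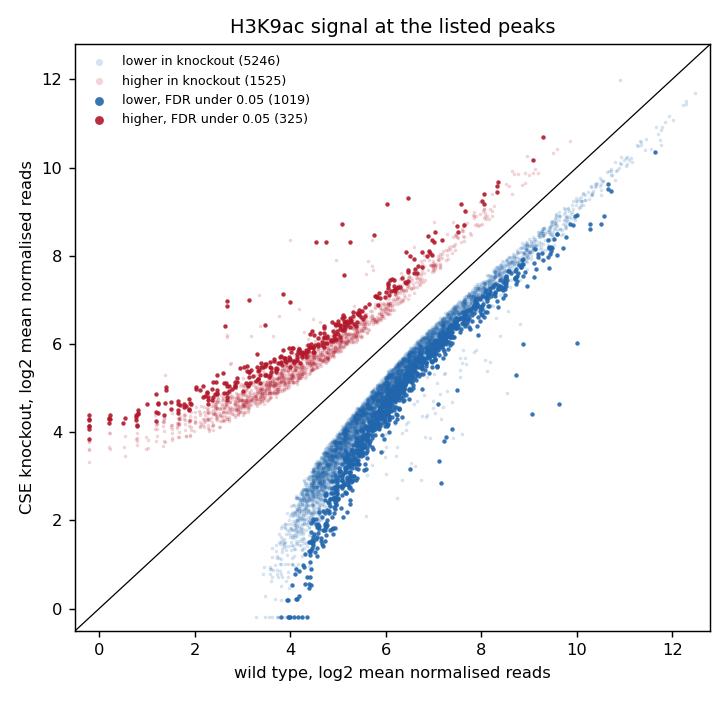
Log2 mean normalised reads of each of the 8115 listed H3K9ac peaks in wild-type (horizontal axis) and CSE knockout cells (vertical axis), 1 point per peak, with the line of equal signal; dark points have an FDR under 0.05. The 6265 points below the line outnumber the 1850 above it, and the gap along the line is empty because only peaks with a p under 0.05 are listed.

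The share of lower peaks rose with signal. Split by log2 signal over both genotypes into 5 groups of 1623 peaks, 70.5% were lower in the weakest group, then 74.0%, 76.5% and 81.1%, and 83.9% in the strongest. The size of the difference went the other way, from a median absolute difference of 1.92 in the weakest group to 0.86 in the strongest, in the authors' deposited table. Within the weakest group the median fold was 4.06 for higher and 3.71 for lower peaks. It was 1.89 and 1.88 in the fourth group and 1.91 and 1.80 in the strongest. Median widths were 325 bases for higher and 315 for lower peaks in the weakest group, and 1808 and 1879 in the strongest. The contrasts of fold and width over the whole list were not adjusted for signal. In 17 peaks the knockout value, and in 12 the wild-type value, stood at the lowest level of the authors' deposited table (-0.19 and -0.21), so that no fold is given for them singly; the medians and counts of folds above include them as deposited.

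Among strong promoter peaks, the largest lower difference was at Igf2bp1. The promoter peak of Igf2bp1, an RNA-binding protein of fetal tissues, had a log2 signal of 4.64 in knockout and 9.62 in wild type, 31.6-fold lower (chromosome 11, 96003974 to 96007586, FDR 0.0201, in the authors' deposited table). Pcsk6, a proprotein convertase, had 4.41 against 9.07, or 25.3-fold lower (chromosome 7, 65861389 to 65863237, FDR 0.00693), and Smoc2, a calcium-binding matrix protein, 2.84 against 7.16, per the authors' deposited table. Npr3, the clearance receptor of natriuretic peptides, kept a knockout log2 signal of 6.03 against 10.01 in wild type in the authors' deposited table. Wild-type signal at all 4 lay above the table's median of 5.35, and knockout signal lay below it except at Npr3. Hs3st3a1, a heparan sulfate sulfotransferase, was 13.7-fold lower, Pde3a, a phosphodiesterase that degrades cAMP, 10.8-fold, Dync1i1, a chain of the dynein motor, 10.8-fold and Dgkg, a diacylglycerol kinase, 10.3-fold in the authors' deposited table, all at an FDR under 0.05.

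On the higher side the promoter of Celf4, an RNA-binding splicing regulator, had a log2 signal of 8.31 in knockout and 4.54 in wild type (13.6-fold), and that of Pcdhgb1, a clustered protocadherin, 6.41 and 2.63 (13.7-fold) in the authors' deposited table. Mx2, an interferon-induced GTPase that the table annotates as a polymorphic pseudogene, had 8.73 and 5.09, or 12.5-fold higher (chromosome 16, 97535893 to 97540948, FDR 0.0333, in the authors' deposited table). Xylt1, which starts glycosaminoglycan chains, was 11.8-fold, and Aldh1a1, which makes retinoic acid, 9.65-fold higher there, per the authors' deposited table. Cdh3 (P-cadherin, 8.88-fold), Kcnn4 (a calcium-activated potassium channel, 8.28-fold) and Tspan8 (a tetraspanin, 7.26-fold) completed these 8 in the authors' deposited table. Celf4 and Aldh1a1 each had a lower peak listed too. All 16 promoter peaks of largest difference had a p of 0.00166 or less and an FDR under 0.05, by the rule that chose them. That rule left out predicted genes (Gm, Rik) and genes named by a number.

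The strongest promoters with an FDR under 0.05 moved by smaller folds. Btaf1, an ATPase that acts on the TATA-binding protein, had the highest signal on the lower side, at 10.35 in knockout and 11.63 in wild type in the authors' deposited table. Ccn2, a matrix protein induced by mechanical and TGF-beta signals, had 9.47 and 10.71, and Lpp, a LIM protein of focal adhesions, 9.52 and 10.65 in the authors' deposited table. Next to these came Mir199a-2 (a microRNA gene, 2.04-fold lower), the transcription factor gene Foxs1 (3.20-fold), the cadherin gene Cdh11 (3.43-fold), Igf2bp3 (2.95-fold), a second member of the Igf2bp1 family, and Cemip (3.18-fold), which takes part in breaking down hyaluronan, per the authors' deposited table. Among strong higher promoters, Aldh3a1, an aldehyde dehydrogenase, had 10.69 in knockout and 9.30 in wild type in the authors' deposited table. The others include Tnfrsf1b, a receptor of tumour necrosis factor (10.17 and 9.09), Parp14 (9.67 and 8.35), the leukocyte adhesion molecule Vcam1 (9.57 and 8.34), the retrovirus-restricting deaminase Apobec3 (9.23 and 8.02) and tetherin, Bst2 (9.17 and 8.05), in the authors' deposited table. In the authors' deposited table Cyb561, a transmembrane electron carrier, was 3.03-fold higher.

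**Figure D2:**
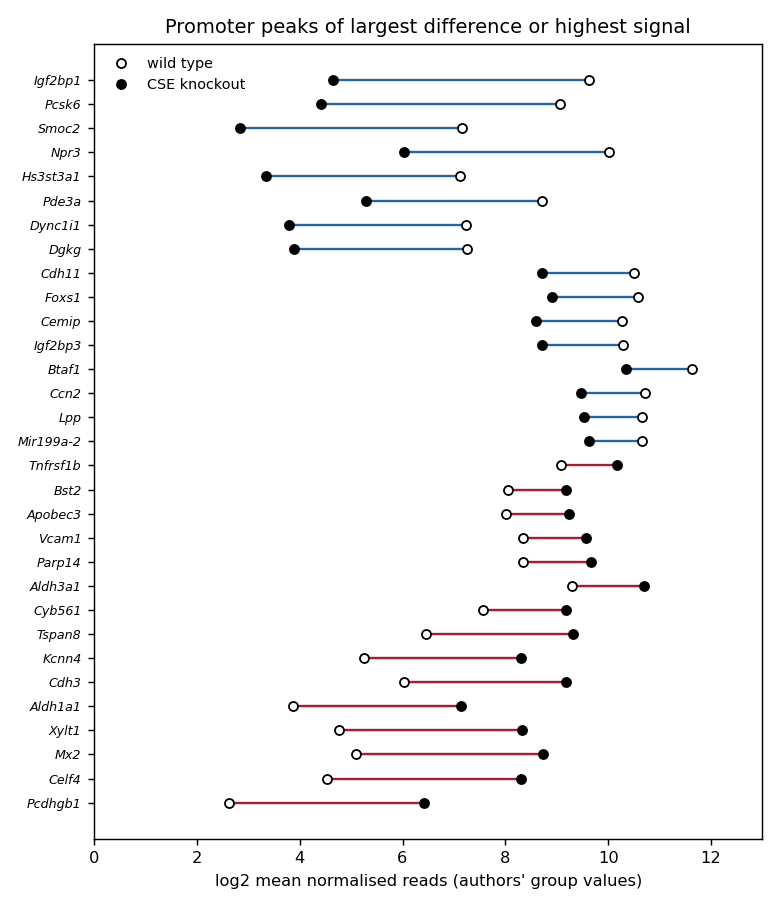
Log2 mean normalised reads in wild type (open) and CSE knockout (filled) at 31 promoter peaks with an FDR under 0.05, chosen for the largest difference or the highest signal in each direction; lines join both genotypes, blue where the knockout was lower and red where it was higher. Igf2bp1 spans the widest gap, from 9.62 to 4.64, and the promoters of highest signal, such as Btaf1 and Aldh3a1, span narrow ones.

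Where a peak lay went with its direction. Of 3647 promoter peaks, 79.3% were lower, against 74.5% of 2237 intronic and 69.4% of 1419 intergenic peaks in the authors' deposited table. A promoter peak is one annotated within 3 kb of a start, and a gene can have several. Of all listed peaks, 17.2% lay over a start site and 9.96% overlapped a RefSeq promoter window. Peaks in exons and at gene ends were lower most often, at 88.3% of 385 exonic and 92.5% of 279 peaks in the 3′ UTR. Within promoters the share was 80.8% up to 1 kb from the start and 72.4% between 2 and 3 kb. By gene type, 78.6% of peaks at protein-coding genes, 80.7% of those at microRNA genes and 70.1% of those at lincRNA genes were lower, beside 77.2% over the list. No test was run on these shares, since peaks on 1 chromosome are neighbours and not replicates.

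Away from promoters, peaks of predicted genes (Gm, Rik) or genes named by a number were again left out of the choice. Among the rest, listed intronic peaks with FDR under 0.05 and log2 signal of at least 5 over both genotypes changed by at most 3.81-fold. The lower intronic peaks of largest difference lay in Tns1 (a focal adhesion protein, log2 signal 4.07 in knockout and 5.87 in wild type), Lhfp, the transcription factor gene Ets1 (3.92 and 5.62) and Loxl1, an elastin cross-linking enzyme (4.45 and 6.05), in the authors' deposited table. Bicd2, Znrf1, the T-type calcium channel gene Cacna1h and Ccdc105 followed at 2.97-fold to 3.01-fold lower, per the authors' deposited table. Higher intronic peaks lay in Abi1, part of an actin-nucleating complex (5.71 and 3.78), Mier1, Sar1b and Nr3c1, the glucocorticoid receptor (6.50 and 4.87), in the authors' deposited table. Tnfrsf1b appeared here again with an intronic peak (5.79 and 4.20), ahead of Pde6h, the kinase gene Stk10 and Ern1, a sensor of endoplasmic reticulum stress (6.14 and 4.59), in the authors' deposited table. Among intergenic peaks chosen the same way, each annotated to its nearest gene, the largest difference was 10.8 kb from the start of Poc1b, at 7.0 in knockout and 3.14 in wild type (14.5-fold higher, FDR 0.00833), per the authors' deposited table. Pde6h, Stk10 and Poc1b each had a lower peak listed as well. The lower intergenic peak of largest difference lay upstream of Ecrg4, a secreted peptide precursor, at 3.80 and 5.67 in the authors' deposited table.

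Counted by gene, the list covered 5914 genes, of which 4481, or 75.8%, were lower by their peak of smallest p. At an FDR under 0.05 there were 1225 of them (20.7%). By symbol, 3960 of 21900 RefSeq protein-coding genes (18.1%) had a listed peak, and 826 (3.77%) one with an FDR under 0.05. Genes with 2 or more peaks numbered 1387, and all peaks of the gene went down in 985 of them, all up in 170 and both ways in 232. A promoter peak and a peak elsewhere were listed for 560 genes; in the 519 where each kind had a single direction, both were lower in 388, both higher in 57, and they were opposed in 37 and 37.

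The gene with most listed peaks was Tns1. This gene, which encodes tensin 1, had 24 peaks, all lower, with differences from -1.99 to -0.61 and a median of -0.93, and 4 of them had an FDR under 0.05 by the authors' deposited table. Mical2, an actin-oxidising enzyme (15 peaks), Trio (13), the matrix gene Fbln2 (12), Myh9, a nonmuscle myosin (11), and the alpha-actinin gene Actn4 (10) were lower at every listed peak. Foxp1, a forkhead factor, was lower at 10 of 12 peaks, Osbpl3, a lipid-binding protein, at 11 of 12 and Actn1 at 9 of 10. Cemip had the largest median difference of these genes, with 10 peaks from -3.22 to -1.11 in the authors' deposited table. Gene length was not taken into account in these counts. No gene had over 6 higher peaks. Tnfrsf1b was higher at all 6 (0.95 to 1.96, 4 with an FDR under 0.05), as were Galk2 (0.96 to 2.42), the tensin gene Tns4 (1.01 to 2.07) and Susd6 (0.84 to 1.90) at 6 each, in the authors' deposited table. Tnfrsf1b lies on chromosome 4, where 62.8% of all listed peaks were higher, and Tns4 on chromosome 11, where 47.5% were. Galk2 and Susd6 lie on chromosomes 2 and 12, where 28.7% and 17.3% were higher.

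**Figure D3:**
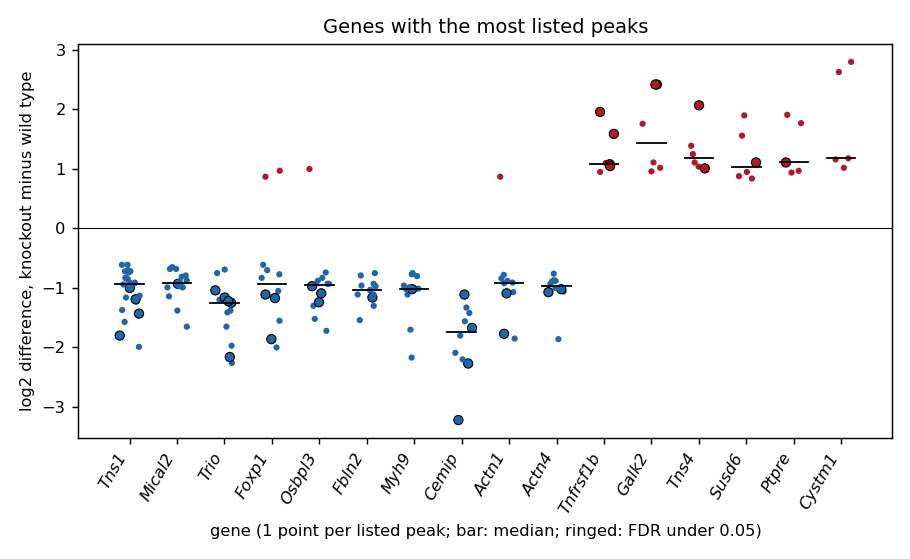
Difference in log2 signal (knockout minus wild type) at each listed peak of the 10 genes with most peaks and of 6 genes with most higher peaks; bars are medians and ringed points have an FDR under 0.05. All 24 Tns1 peaks lie below 0 and all 6 Tnfrsf1b peaks above it, while Foxp1, Osbpl3 and Actn1 have points on both sides.

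Adjacent listed peaks within 100 kb shared a direction more often than those farther apart. Of 8094 pairs of adjacent listed peaks 75.7% had the same direction, rising to 82.0% of 4798 pairs within 100 kb and falling to 61.5% of 602 pairs over 1 Mb apart. The shares of lower and higher peaks alone would give 64.8%, so pairs over 1 Mb apart did not exceed that level. A higher peak was followed by another higher peak in 46.7% of cases, against the 22.8% of the list that was higher. Runs of at least 10 consecutive lower peaks numbered 186 and held 57.3% of all lower peaks, while 7 runs of that length were higher and held 5.84% of higher peaks. Lower peaks make up most of the list, and the numbers of runs were not set against that share. In 10 Mb windows with at least 20 peaks (156 of 270 with any), 35 were lower at 90% of peaks or more, and 12 were higher at over 50%, all on chromosomes 4, 11, 16 and 18.

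The longest higher run held 35 peaks of 22 genes on chromosome 18 (34840322 to 36727156), with a median difference of 1.20 and 5 peaks with an FDR under 0.05 by the authors' deposited table. Its strongest peaks were the promoters of Cd14, a co-receptor of bacterial lipopolysaccharide (10.34 in knockout and 9.50 in wild type), Cxxc5, a CXXC zinc-finger protein (10.26 and 8.97), and Cystm1 (9.85 and 8.69), each with an FDR over 0.05 by the authors' deposited table, besides a peak in Nrg2, a neuregulin. A run of 17 higher peaks on chromosome 4 (80899888 to 89124566) took in Cntln, the transcription factor gene Nfib, Ttc39b and Wincr1, and its 10 Mb window from 80 to 90 Mb was higher at 18 of 20 peaks. On chromosome 16 (78198085 to 78540989) 13 higher peaks covered Btg3, an antiproliferative gene, and Cxadr, the coxsackievirus receptor. Btg3 had 9.63 in knockout and 8.52 in wild type at its strongest peak, and 5.55 and 3.50 at a weaker promoter peak (FDR 0.0197) by the authors' deposited table.

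The longest lower run, 61 peaks of 44 genes on chromosome 7 (120864813 to 130534256), included Tgfb1i1, a focal adhesion coactivator (9.55 in knockout and 10.38 in wild type), Gga2, the acetyltransferase gene Kat8 (8.25 and 8.97) and Tbc1d10b, in the authors' deposited table. A run of 54 on chromosome 3 (84314331 to 89864505) included Lmna, which encodes the nuclear lamins A and C (11.41 and 12.23), Gpatch4, Sh3d19 and Trim2, in the authors' deposited table. Another 54 spanned 62.4 Mb of chromosome X (36742982 to 99131704), with Gpc4, a glypican, Eda2r, Flna, the actin cross-linker filamin A (8.22 and 9.05), Slc25a43 and Mpp1, in the authors' deposited table. The named peaks of these 3 runs each had an FDR over 0.05 by the authors' deposited table, and the runs held 11, 12 and 7 peaks with an FDR under 0.05.

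Chromosomes 4 and 18 were the only ones with more higher than lower peaks, 145 of 231 and 151 of 239. Chromosome 11 had 209 higher peaks of 440 (47.5%) and chromosome 16 had 102 of 249 (41.0%), whereas chromosome 7 had 55 of 634 (8.68%) and X 9 of 136 (6.62%). Chromosome 4 also had few listed peaks for its genes, 17.4 per 100 protein-coding genes of RefSeq, against 14.1 on X, 52.9 on chromosome 8 and 62.9 on chromosome 15. Leaving out chromosomes 4 and 18 raised the share of lower peaks from 77.2% to 79.7% of 7645. Of the higher promoters of largest difference, Celf4 and Pcdhgb1 lie on chromosome 18 and Mx2 on 16, and the others on 7, 8, 10 and 19. Of the higher intronic peaks named above, Mier1 and Tnfrsf1b lie on chromosome 4, Nr3c1 on 18, and Sar1b, Stk10 and Ern1 on 11. Abi1 and Pde6h lie on 2 and 6. Around Cth itself, on chromosome 3, 0 H3K9ac peaks are listed within 2 Mb and 17 within 10 Mb, 14 of them lower, so the deleted gene could not be checked with this mark. Because the list holds no p under 1.01e-04, a peak at Cth with a smaller p would be missing from it.

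**Figure D4:**
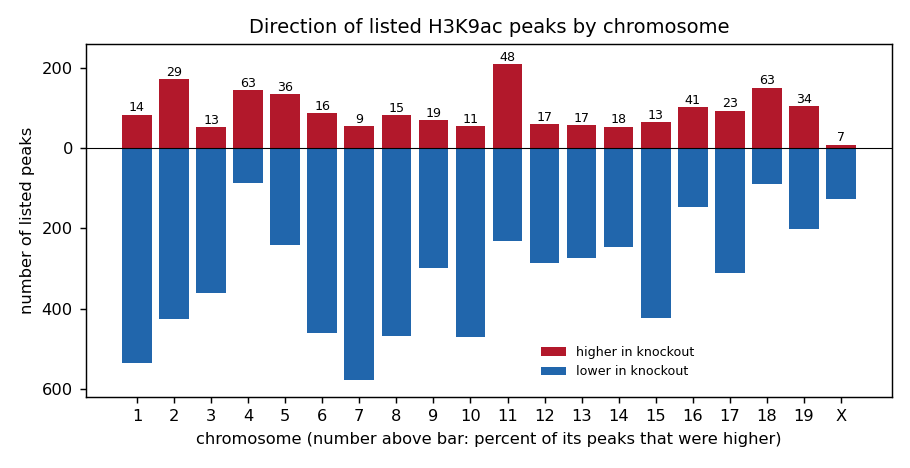
Number of listed H3K9ac peaks higher (red, upward) and lower (blue, downward) in the knockout on each chromosome, with the percentage that was higher printed above each bar; the single peak on chromosome Y is left out. Chromosomes 4 and 18 are the 2 with more red than blue, at 62.8% and 63.2%, and X has the lowest percentage, 6.62%.

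Gene groups were read against these backgrounds, 75.8% of listed genes lower and 20.7% with an FDR under 0.05, with each gene counted once by its peak of smallest p. For the number of members listed, the background is the 18.1% of RefSeq protein-coding genes with a listed peak. The share listed was 65.6% for the contractile apparatus and 17.0% for the transsulfuration and one-carbon genes, for example. Of the genes named in these groups, Actn1, Arid5b, Efnb1, Ephx1, Igfbp4, Itgb5, Pde4d, Pdlim5, Ptpn1, Rbpj, Runx1, Trim28 and Txnrd1 had listed peaks in both directions. In the contractile apparatus, the actin and myosin machinery of muscle, 21 of 32 genes were listed, 19 lower and 2 higher, with a median difference of -1.23 against -1.01 over all listed genes in the authors' deposited table. Of these, 9 lower genes and 1 higher gene had an FDR under 0.05. Ldb3, a Z-disc protein, had 5.88 in knockout and 7.20 in wild type at its promoter, Nexn, an actin-binding protein, 8.20 and 9.46, and Pdlim3 3.17 and 5.58 in the authors' deposited table. The troponin genes Tnni2 (5.33 and 6.78) and Tnnt2 (5.06 and 6.58) were lower too, and a distal peak of Pdlim5 stood at the lowest knockout level, -0.19 against 4.36, in the authors' deposited table. Among 25 listed of 38 focal adhesion genes 20 were lower (80%), with a median of -0.96. By peak, 75 of 83 were lower, but peaks of 1 gene are not independent, and Actn1 and Actn4 have 10 each. The lower genes include Ptk2, focal adhesion kinase (7.65 and 8.71), Actn1 (8.49 and 9.58) and Actn4 (7.42 and 8.49), whereas a promoter peak of the integrin gene Itgb5 was higher (5.93 and 4.41), all at an FDR under 0.05 by the authors' deposited table.

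Of 15 listed smooth muscle transcription factors and cofactors 12 were lower, with 1 in each direction at an FDR under 0.05: Tead1, the Hippo pathway factor (5.18 and 6.63), lower, and Runx1 (4.63 and 1.78) higher, in the authors' deposited table.

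The 4 lists of matrix genes lay on both sides of the background share. Of 24 collagen genes 11 were listed, 10 lower, and the 3 with an FDR under 0.05 were Col4a2 (1.86 in knockout and 4.76 in wild type), Col5a1 (2.17 and 4.81) and Col3a1 (6.15 and 7.42) in the authors' deposited table. The only higher collagen call was an intergenic peak nearest Col1a2 (4.65 and 2.44, FDR 0.0851, in the authors' deposited table). Of 51 genes of elastic fibres, glycoproteins and proteoglycans 19 were listed, 16 lower; Ccn5 (6.03 and 7.09), Fbln1 (5.51 and 7.08) and Fbln2 (5.59 and 6.75) were lower and Spp1, osteopontin (6.53 and 5.25), higher at an FDR under 0.05 by the authors' deposited table. Collagen folding and cross-linking genes had 6 with an FDR under 0.05, 3 each way: Fkbp10 (4.99 and 6.76), Loxl1 and the procollagen peptidase Adamts14 (5.61 and 6.63) lower, and lysyl oxidase, Lox (5.83 and 4.51), P3h4 (5.97 and 4.38) and Pcolce (5.03 and 2.84) higher, in the authors' deposited table. The Lox peak is annotated to an exon and lies away from the start site. Proteases and inhibitors gave 9 lower and 5 higher genes, with Mmp2, gelatinase A (7.75 and 8.83), Adam9 (6.34 and 7.33) and the inhibitor Serpine2 (7.24 and 8.36) lower in the authors' deposited table.

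Growth factors and receptor kinases were lower almost throughout. Of 56 genes 28 were listed, 27 of them lower, with a median near that of all listed genes, and all 9 with an FDR under 0.05 were lower. Igf1 had 8.42 in knockout and 9.77 in wild type at its promoter, its receptor Igf1r 5.00 and 6.29 at the first of 8 lower intronic peaks, and the binding protein gene Igfbp4 4.19 and 6.05, in the authors' deposited table. A stronger Igfbp4 peak went the other way, at 8.02 and 6.80 (FDR 0.055), in the authors' deposited table. The collagen receptor Ddr1 (6.29 and 7.32), Fgfr2 (2.49 and 5.01) and Nrg1 (1.20 and 4.56) were lower in the authors' deposited table, the last with few reads in knockout. The single higher gene was Igfbp3 (7.47 and 6.30, FDR 0.109, in the authors' deposited table). JAK-STAT genes gave 4 lower and 3 higher, with Socs2, which restrains growth hormone signalling (7.73 and 9.42), lower and the phosphatase gene Ptpn1 (5.12 and 2.65) higher at an FDR under 0.05 by the authors' deposited table.

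In the MAP kinase and PI3-kinase cascades 11 of 17 listed genes were lower, among them all 4 with an FDR under 0.05. These were the phosphatases Dusp4 (0.56 in knockout and 4.31 in wild type) and Dusp10 (5.77 and 6.75), Map4k4 (4.48 and 5.97) and Mapk14, which encodes p38 alpha (3.92 and 5.52), in the authors' deposited table. The Dusp4 values are those of a weak peak with few reads in knockout. All 6 listed Dusp4 peaks were lower, with differences from -3.75 to -0.94, and the strongest had a log2 signal over both genotypes of 11.32. TGF-beta and BMP genes were more evenly split, 7 lower and 5 higher, with a median of -0.68 in the authors' deposited table. Smad9, a BMP signal transducer, had 7.42 and 8.74, and Tgfbr2, the TGF-beta receptor that binds ligand first, 4.43 and 0.81 at a weak intronic peak, in the authors' deposited table. Wnt and Hippo genes gave 14 lower and 3 higher, with Wnt5a (5.85 and 7.23), Wnt5b (6.65 and 7.73), Wnt10a (5.03 and 6.25), Vgll4 (6.25 and 7.21) and the kinase gene Lats2 (5.33 and 6.41) lower at an FDR under 0.05 by the authors' deposited table. Notch, Hedgehog and Eph-semaphorin genes gave 14 lower and 8 higher by listing, but 1 lower and 4 higher at an FDR under 0.05. Those 4 were Efnb1, an ephrin (5.78 and 4.14), Sema3d (7.64 and 6.46), Rbpj, the DNA-binding partner of Notch (5.15 and 2.88), and Ephb3 (5.64 and 4.14), and the lower one was Sema5a (4.94 and 6.15), in the authors' deposited table.

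Among 20 listed vasoactive receptors and enzymes 18 were lower, and besides Npr3 and Pde3a the other with an FDR under 0.05 was Pde4d, a cAMP phosphodiesterase, at a higher intronic peak (5.02 in knockout and 2.04 in wild type) in the authors' deposited table. Calcium and potassium handling genes gave 17 lower and 4 higher: the channel subunit gene Cacnb3 (4.53 and 6.28), the potassium channel gene Kcnk2 (4.86 and 6.28), the calcium pump gene Atp2b1 (7.29 and 8.24), the IP3 receptor gene Itpr1 (4.41 and 5.89) and Nfatc4 (5.53 and 6.64) were lower in the authors' deposited table, while Kcnn4 was the only higher one with an FDR under 0.05.

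Detoxification genes went against the direction of the list as a whole. Of 51 genes of glutathione transfer and detoxification 15 were listed, 11 higher and 4 lower, with a median difference of 1.15 in the authors' deposited table, and 6 higher genes and 1 lower had an FDR under 0.05. Gsto2, a glutathione transferase of the omega class, had 8.07 in knockout and 6.92 in wild type, Gstm1 5.47 and 3.04, Ugt1a6a, a glucuronosyltransferase, 4.43 and 1.66, and Aldh3a1 the values given above, in the authors' deposited table. Ephx1, an epoxide hydrolase (3.58 and 5.49), was lower at 4 of its 5 peaks in the authors' deposited table. The strongest knockout signal among all higher peaks, 11.99 against 10.91, was at Cyp1b1, a cytochrome P450, with an FDR of 0.151 by the authors' deposited table. Some members are neighbours, such as the Gstm genes of chromosome 3, and are not independent. The NRF2 targets and antioxidant enzymes, by contrast, had 8 lower and 1 higher of 9 listed, and 0 with an FDR under 0.05. Nox4, an NADPH oxidase, had 7.46 and 8.45 (FDR 0.0539) and Txnrd1, thioredoxin reductase, 3.22 and 4.98 (FDR 0.063) in the authors' deposited table. A stronger Txnrd1 peak was at 5.67 and 4.27 (FDR 0.0741) by the authors' deposited table.

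Interferon and antigen presentation genes gave 10 higher and 6 lower of 16 listed, with a median difference of 0.92 in the authors' deposited table, and the 3 with an FDR under 0.05 were all higher: Bst2, Ifi35 (5.48 in knockout and 3.31 in wild type) and Mx2. The interferon receptor gene Ifnar2 had 6.06 and 4.99 (FDR 0.119), and Irf5 3.74 and 5.16 (FDR 0.133), in the authors' deposited table. Cytokine and inflammation genes gave 11 lower and 7 higher, but 16 of their 30 peaks were higher, and 3 genes stood on each side at an FDR under 0.05. The chemokine gene Ccl2 (7.92 and 6.60), Vcam1 and Tnfrsf1b were higher, and Nfkbiz (3.46 and 5.48), the LIF receptor gene Lifr (7.70 and 9.15) and the other TNF receptor gene, Tnfrsf1a (5.50 and 6.59), lower, in the authors' deposited table. With promoter peaks only, this list had 6 higher and 5 lower genes. Beside these groups stand the markers of leukocytes, of which 2 of 8 were listed, both higher: Cd14, given above, and Aif1 (6.05 and 5.32, FDR 0.322) in the authors' deposited table. The part of other cell types in these results was not tested, since levels at peaks that did not differ are not analysed here. Of the other marker lists, smooth muscle had 5 lower and 1 higher of 8, with Lmod1 (6.35 and 7.58) lower and Smtn (7.42 and 6.46) higher at an FDR under 0.05, per the authors' deposited table. Endothelial markers gave Vwf lower and Pecam1 higher, fibroblast markers 2 each way with Ly6a higher (6.77 and 5.45), adipocyte markers Lipe lower, and Schwann cell markers S100b higher (5.05 and 2.84), in the authors' deposited table.

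Genes that act on chromatin were lower in most cases. Of 56 acetylation writers, erasers and readers 18 were listed, 16 lower and 2 higher, with a median of -1.33 in the authors' deposited table. The 4 with an FDR under 0.05 were lower, among them the acetyl-lysine reader Brd2 (5.18 in knockout and 6.50 in wild type), the acetyltransferase Kat8 (3.59 and 5.41) and Tada3, a subunit of GCN5 complexes (7.05 and 7.90), in the authors' deposited table. This Kat8 peak is weaker than the Kat8 promoter peak given above (8.25 and 8.97, FDR 0.283). Methylation enzymes and associated factors gave 25 lower and 4 higher of 73, with 9 lower and 1 higher at an FDR under 0.05. Tet1, which oxidises methylcytosine (7.53 and 8.75), Mecom (8.38 and 9.52), Trim28 (6.36 and 7.39), Setd8 (4.08 and 5.68) and Smyd2 (2.88 and 5.19) were lower, and Nsd1, by a weak intergenic peak (4.35 and 0.77), higher, in the authors' deposited table. Each of 9 listed genes of chromatin remodellers and related factors was lower, with Arid5b (5.32 and 6.40) and Smarca5 (3.65 and 5.50) at an FDR under 0.05 by the authors' deposited table. Nuclear receptors gave 12 lower and 4 higher, or 75% lower, beside 75.8% of all listed genes. The retinoic acid receptor Rarb (6.61 and 8.06), the clock repressor Nr1d1 (4.53 and 6.27) and Rora (8.05 and 9.45) were lower and Nr3c1 higher in the authors' deposited table.

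The shares of lower genes in metabolic and stress groups lay on both sides of the 75.8% of all listed genes. These groups have few listed genes, and differences between them were not tested. Transsulfuration and one-carbon genes, the pathway of CSE, had 8 of 47 listed, 6 lower, of which Mthfd1, a folate enzyme (4.80 in knockout and 6.13 in wild type), had an FDR under 0.05 by the authors' deposited table. Phgdh, which starts serine synthesis, had 7.98 and 8.99 (FDR 0.08) in the authors' deposited table. Hypoxia and glycolysis genes gave 13 lower and 1 higher, with Gapdh (6.00 and 7.13) and Pdk4 (4.70 and 5.90) at an FDR under 0.05 by the authors' deposited table. The higher gene was Hif1a, the hypoxia factor, at all 4 of its peaks (differences of 1.4 to 2.34), none with an FDR under 0.05 by the authors' deposited table. ER stress genes gave 11 lower and 3 higher, with Creld2 (4.50 and 6.18), the chaperone gene Hspa8 (6.07 and 7.01) and Hsf1 (2.43 and 4.79) lower and Ern1 higher in the authors' deposited table. The 6 listed autophagy and lysosome genes, 8 of 9 mitochondrial genes and 14 of 16 lipid genes were lower, the last with Scap, the cholesterol sensor partner of SREBP (2.50 and 4.93), at an FDR under 0.05 by the authors' deposited table. Immediate early genes gave 9 lower and 5 higher, with Fosl2 (4.18 and 5.86) and Fosb (1.51 and 4.40) lower in the authors' deposited table. Cell death genes gave 15 lower and 3 higher, yet 2 of the 3 with an FDR under 0.05 were higher: Birc2, an inhibitor of apoptosis (5.15 and 2.44), and the death receptor gene Fas (5.37 and 3.13), against Cflar (7.06 and 8.11), in the authors' deposited table. Cell cycle genes gave 8 lower and 1 higher, the latter E2f2 (7.26 and 6.05), while Rb1 was lower at a weak peak (0.85 and 4.18), in the authors' deposited table. The clock genes gave 4 lower and 2 higher, and all 5 listed imprinted genes were lower, led by Kcnq1ot1 (8.18 and 9.41) in the authors' deposited table.

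**Figure D5:**
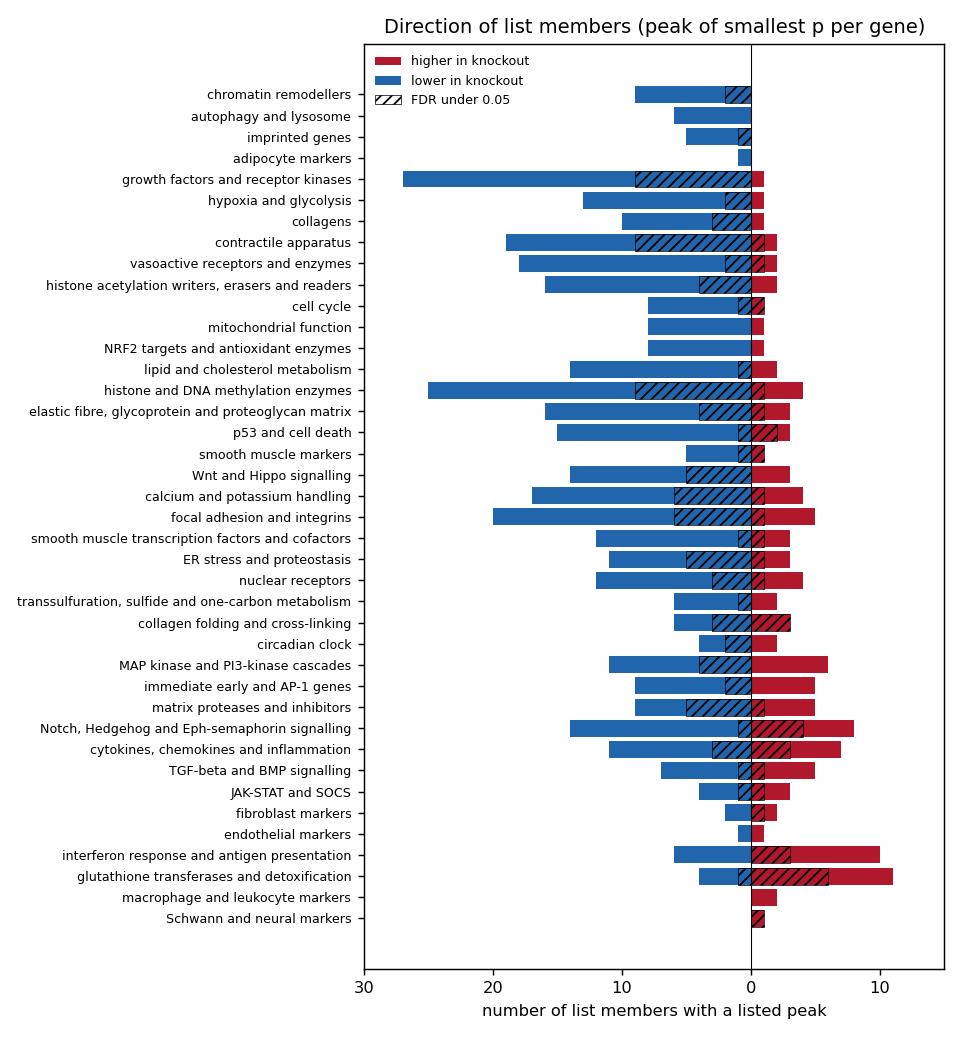
Number of genes in each of 40 lists that were lower (blue, leftward) or higher (red, rightward) in the knockout by their listed H3K9ac peak of smallest p; hatching marks an FDR under 0.05. Growth factors and receptor kinases reach 27 lower against 1 higher, and detoxification (11 against 4) and interferon genes (10 against 6) have more higher than lower members.

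Promoter sequence was compared over the RefSeq windows that overlap a listed peak, 183 under higher and 686 under lower peaks, beside all 27025 RefSeq promoters of the same length. The latter were taken whether or not they carry H3K9ac in these cells. Promoters with the mark that did not differ were not compared. The median number of CpG was 12 under higher and 15 under lower peaks, against 7 over all promoters, and the median G and C content 58.0%, 59.3% and 52.7%. A GC box (GGGCGG) was found in 51.4% of windows under higher and 56.6% under lower peaks, against 35.6% of all. At an FDR under 0.05, with 39 windows under higher and 159 under lower peaks, the median number of CpG was 12 in both and the GC box was in 59.0% and 45.3%. A forkhead motif (TGTTTAC) was in 5.46% of windows under higher and 1.90% under lower peaks, against 3.58% of all, and a TATA box (TATAAA) in 13.1%, 10.3% and 14.1%. The CCAAT box (CCAAT) was in 36.1%, 34.4% and 37.8%, and a TEAD motif (GGAATG) in 18.03%, 17.5% and 14.6%. The palindromic E-box (CACGTG) was in 8.20%, 9.48% and 7.09%, and contains the hypoxia response core (ACGTG), found in 17.5%, 20.4% and 19.5%. The antioxidant response core (TGACNNNGC) was in 13.7%, 13.4% and 12.4%, the AP-1 motif (TGANTCA) in 8.74%, 6.71% and 7.91%, and the ETS motif (CCGGAAG) in 9.29%, 6.56% and 9.08%. A cAMP response element (TGACGTCA) was in 0.546%, 2.19% and 1.78%, and the SMAD palindrome (GTCTAGAC) was in 0%, 0.292% and 0.222%. Both strands were searched, and a match is only a string of letters in the window. Of the promoters printed above, Hs3st3a1 holds the cAMP response element, the E-box, the CCAAT and GC boxes and the antioxidant core, Kcnn4 the E-box, the GC box and the TEAD motif, Bst2 the GC box and the TEAD motif, Apobec3 the TEAD motif, Tspan8 the forkhead motif, Npr3 the CCAAT box and Pcsk6 the GC box.

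Set beside the other marks of the study, listed H3K9ac peaks lay at promoters in 44.9% of cases, against 12.3% of 5374 H3K9me3 peaks and 87.6% of 469 H3K4me3 peaks. Their median width was 719 bases, between 398 for H3K9me3 and 1104 for H3K4me3, and 3.22% of them lay over 50 kb from a start site, against 27.9% of H3K9me3 peaks. Median log2 signal was 5.35 for H3K9ac and 2.74 for H3K9me3 in the authors' deposited tables, which were normalised separately. Of the listed H3K9me3 peaks 0 had an FDR under 0.05, against 1344 of the H3K9ac peaks. These shares therefore describe the listed peaks and not where each mark lies in the genome.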

How the data were processed

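H3K9ac ChIP-seq was compared between 3 CSE knockout and 3 wild-type samples. Per the submitters' processing notes, CASAVA 1.4 and the build mm9 were used; the aligner, peak caller, scaling and test were not given in the sources used here. Per the file headers, the authors deposited a log2 signal for each peak (the mean normalised reads of each genotype and of both), together with its log2 fold change, its p-value and its FDR, and no value per sample. The log2 fold change matched the difference of the deposited group values within 0.01. Gene positions overlapped those of RefSeq GRCm38.p6 for 99.7% of 4988 matched symbols, so coordinates are printed as deposited and taken as GRCm38; the build of the peak positions themselves was not tested. Deposited widths exceed end minus start by 2 bases, so a start may be off by a base. Listed p-values run from 1.01e-04 to 0.0499; if the FDR is p times tests over rank, about 59000 peaks were tested and 958 with a smaller p are not analysed here.

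The tests planned for values per sample were replaced by counts and medians of the authors' calls, computed with pandas 2.3.3, numpy 2.4.6 and scipy 1.17.1 under Python 3.11.15 and drawn with matplotlib 3.10.9; run finding and the choice of 1 peak per gene were tested on simulated data. The depth of the libraries is unknown. A gene takes its peak of smallest p; runs are consecutive listed peaks of 1 direction at any distance; promoters are peaks annotated within 3 kb of a start. Genes are named by rule: per direction and class (promoter, intron, intergenic) the 8 largest differences with FDR under 0.05 and log2 signal of at least 5, per direction the 8 strongest promoter peaks with FDR under 0.05, the 10 genes with most peaks, up to 6 per list, and the strongest 5 peaks of the 3 longest runs per direction. Predicted genes (Gm, Rik) and genes named by a number were left out of the largest differences and the run peaks. Genes outside the rule (Galk2, Tns4, Susd6, Cyp1b1, Igfbp3) and the printed promoters were chosen after their values were seen. Members, the 41 lists, the 12 motifs and rules were chosen with earlier results of these data known, so no list has a test. 1 of the lists and some genes are not reported here. RefSeq promoter windows were matched by position; 747 of 2260 start-site peaks overlapped one. Alternatives were stricter p, FDR, difference and signal, fewer chromosomes, 1 peak per gene, merged neighbours and a shift of all differences.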

Additional observations from a re-analysis of the deposited data

How the results depend on the processing

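The share of lower peaks, 77.2%, was 76.1% at p under 0.01, 74.9% at p under 0.001, 75.8% at FDR under 0.05, 73.9% with a difference of at least 1, 78.2% with a log2 signal of at least 4, 75.8% with 1 peak per gene and 68.4% with neighbours of 1 direction within 100 kb counted once. Moving all differences by 0.5 either way left 77.2%, because no listed difference is that small; no other normalisation was run. For promoters (79.3%) it was 77.5% at p under 0.01, 76.7% at FDR under 0.05, 81.1% without chromosomes 4 and 18 and 80.8% within 1 kb of the start. Introns gave 77.6% without those chromosomes, and intergenic peaks 72.6%, or 72.0% at FDR under 0.05. List members were lower in 77.0% of cases, and in 72.0% at FDR under 0.05. Lower runs fell from 186 to 91 at p under 0.01, where fewer peaks are counted. The majority of a list turned for cytokines with promoter peaks only (6 higher, 5 lower), and at FDR under 0.05 for Notch and related genes (4 higher, 1 lower) and cell death (2 higher, 1 lower). No paired analysis was possible because the table holds 1 value per genotype, and for the same reason no sample could be left out. Depth is unknown, and folds at peaks of low signal rest on few reads.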
